A study of Ovis aries with 10 samples.

Results

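The microRNA (miRNA) landscape described here is that of sheep lung segments with a normal histology label, which covers 5 of the 10 arrays of the study and all 152 ovine miRNA probes among the 207 probes of the array. The study profiled the fibrotic and the control caudal lung segment of 5 female merino sheep, 9 months old per the labels, with a custom 1-dye array of probes for ovine miRNAs of miRBase and 55 control probes. The methods describe bronchoscopic infusion of saline into the control segment and of bleomycin, a drug that injures lung tissue, into the other segment of the same animal, in 2 doses, with tissue taken at week 4. No animal was untreated, since each control segment came from an animal whose opposite caudal segment was injured. The methods state that the 5 sheep were chosen for the most severe fibrosis. The arrays came from sheep 2 and 3, where the normal label belongs to the right segment, and from sheep 6, 7 and 10, where it belongs to the left segment. The label and the text of the study disagree on the side in sheep 6, 7 and 10, because the text gives the right segment as saline-infused in every animal. The labels were followed, and no test against fibrotic tissue was made. The right segments, which carry the fibrosis label in sheep 6, 7 and 10, served only as an alternative choice of control at the end. RNA came from pieces of whole lung, so that fewer cells of a type and less RNA per cell cannot be told apart.

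A miRNA is cut by Dicer from a hairpin precursor, and either arm of the hairpin, named 5p or 3p, can be loaded into an Argonaute protein, where it represses messenger RNAs that match its seed, a short stretch near its 5′ end. Members of a family such as let-7 or miR-30 share the seed and are generally taken to act on overlapping sets of targets. In lung, let-7 is known for its place in the alveolar epithelium, the miR-200 family marks epithelial cells, miR-143 marks smooth muscle, and miR-21, miR-29 and miR-26a are much studied in fibrosis.

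The summed intensity of the 152 miRNA probes lay between 139350 and 146225 per array, while the median miRNA had an intensity of only 9.52 to 14.9. Levels are given as log2 intensities after values below 1, 14.7% of all, had been raised to 1. A mean log2 intensity of at least 5, which is an intensity of 32 and is called bright below, was reached by 58 miRNAs or 38.2%. The control probes were far less even between arrays. The summed 5S ribosomal RNA controls were 54005, 33415, 580864, 60427 and 319756 in sheep 2, 3, 6, 7 and 10. The summed spike controls were 40956, 26854, 239347, 29152 and 142509 in the same order. The arrays of sheep 6 and 10 were thus the highest for both kinds of control, and main results that rest on them are also given without them.

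The miRNA signal was concentrated in few probes. The 10 brightest miRNAs of each array held 52.7%, 52.2%, 60.6%, 53.4% and 56.7% of its summed miRNA intensity in sheep 2, 3, 6, 7 and 10, a mean of 55.1% ± 3.53 (SD, n = 5). Sheep 6 and 10 had the highest shares, and the mean of the other sheep was 52.7%. The 20 brightest held 78.7% to 80.2% and the 30 brightest 91.0% to 91.8%, so these cumulative shares differed less between arrays than that of the 10 brightest. Each array was ranked on its own, so the shares do not show whether the same miRNAs lay at each place. Between 7 miRNAs, in sheep 6, and 10 miRNAs, in sheep 2, 3 and 7, made up the first 50% of the signal, and 48 to 51 made up 99%. A probe's intensity depends on its binding and labelling as well as on the amount of miRNA, so the ranking is one of signals and was not tested.

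**Figure D1:**
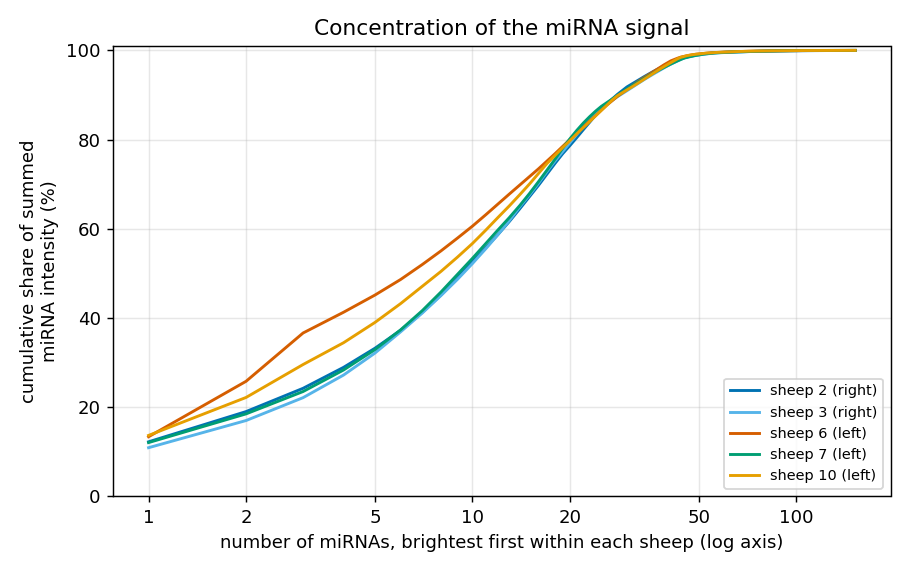
Cumulative share of the summed miRNA intensity (vertical axis, percent) against the number of miRNAs ranked from the brightest (horizontal axis, log scale) on each of the 5 normal-labelled arrays. The curve of sheep 6 is the highest at 3 miRNAs, with 36.6%, and all curves meet near 80% at 20 miRNAs.

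miR-26a, a repressor of cell cycle genes and of Smad signalling, was the brightest miRNA in all 5 sheep. Its intensity was 17009, 15359, 19514, 17096 and 19612 in sheep 2, 3, 6, 7 and 10. The highest and lowest animals differed 1.28-fold, and its mean log2 intensity was 14.11 ± 0.15 (SD, n = 5), a share of 12.4% ± 1.11 of the miRNA signal. No other miRNA kept its place in every animal: miR-26a was the only one among the 3 brightest of each sheep, and 5 miRNAs were among the 10 brightest of each sheep, out of 15 that were so in any.

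The next means belonged to miR-143 and miR-21, which varied between animals on the scale of the deposited values. miR-143, which promotes the contractile state of smooth muscle, had intensities of 9449, 4395, 18181, 9148 and 10618 in sheep 2, 3, 6, 7 and 10. miR-21, an abundant miRNA that is raised by transforming growth factor β signalling and in injured tissue, had intensities of 5965, 4483, 15847, 5961 and 12243 in the same order. Both were highest or next to highest in sheep 6 and 10 and lowest in sheep 3, where they ranked 13 and 12, and they differed 4.14-fold and 3.54-fold between the extreme animals. Without sheep 6 and 10, miR-143 kept rank 2 with a mean log2 intensity of 12.82, while miR-21 fell from rank 3 to rank 9 with 12.40, below miR-16b at 12.80 and let-7a at 12.77. When the control probes served as the centre of each array, the SD of miR-21 was 0.16 in place of 0.78 and that of miR-143 was 0.42 in place of 0.73, so the spread of both depends on the scale between arrays. The miR-21 values of sheep 2 (right segment) and sheep 7 (left segment) were nearly the same, while those of sheep 6 and 10 (left segments) were higher than both right ones. Side and animal cannot be told apart here.

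miR-16b, of the miR-16 family that restrains cyclins and the survival factor Bcl2, followed with intensities of 7278, 7239, 6802, 6856 and 6542. It was the opposite case, with only 1.11-fold between the highest and the lowest sheep and ranks from 3 to 5. With mean log2 intensities of 12.95 ± 0.78 for miR-21 and 12.76 ± 0.06 for miR-16b, the order of this pair lay within the spread of miR-21 between animals. Among the neighbours further down, let-7a (12.56 ± 0.43) and let-7f (12.55 ± 0.27) did not differ beyond their spread, and neither did miR-23a (12.24 ± 0.28) and miR-30b (12.24 ± 0.46).

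The remaining places among the 20 highest means were held by miR-23b (12.49 ± 0.14), miR-30a-5p (12.13 ± 0.19), let-7d (12.10 ± 0.42), let-7b (11.94 ± 0.61), miR-29a (11.91 ± 0.44), miR-191 (11.87 ± 0.04), let-7i (11.84 ± 0.21), let-7c (11.70 ± 0.47), miR-125b (11.56 ± 0.63), miR-26b (11.53 ± 0.52), miR-30c (11.47 ± 0.64) and let-7g (11.46 ± 0.19), all as mean log2 intensity ± SD over 5 sheep. These 20 are members of 10 families, and every let-7 member on the array was among them. Of all miRNAs, 14 were among the 20 brightest in each sheep and 26 in any sheep. Both miR-23 members, which are made with miR-27 and miR-24 from shared transcripts, and miR-29a, which represses collagen messages, were of this group. miR-29a had intensities of 4294, 2678, 5633, 3001 and 4329, so that its rank moved from 5 in sheep 6 to 21 in sheep 3.

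**Figure D2:**
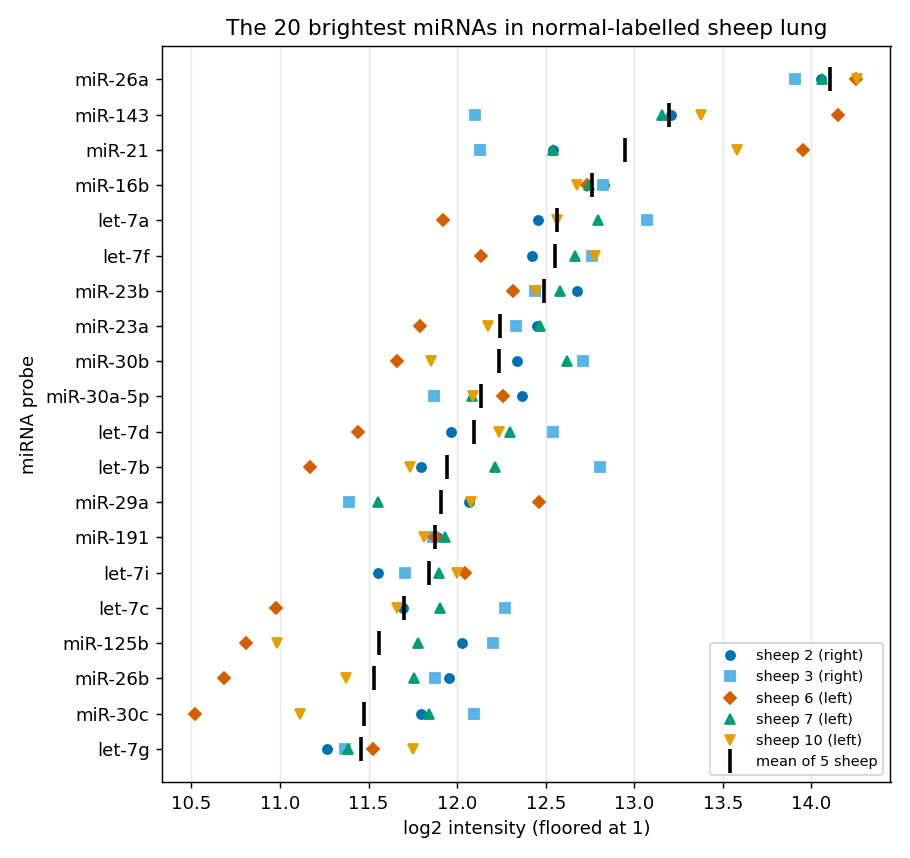
Log2 intensity (horizontal axis, floored at 1) of the 20 miRNAs with the highest mean over the 5 normal-labelled segments, with each sheep as a point and the mean as a vertical tick. miR-26a stands apart at 14.11, while miR-143 and miR-21 show the widest spread and miR-191 and miR-16b the narrowest among the 20.

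Summed over families by name, 6 of 77 families held more than 5% of the signal each. The 7 let-7 probes together were the largest family in every sheep, with 19.7%, 28.0%, 15.5%, 23.7% and 22.3% in sheep 2, 3, 6, 7 and 10, a mean of 21.9% ± 4.68. let-7 was highest in sheep 3 and lowest in sheep 6, and without sheep 6 and 10 its mean was 23.8%. The pair miR-26a and miR-26b came next with a nearly constant 14.6% ± 0.731, although the 2 members moved apart: miR-26b was at an intensity of 3970, 3753, 1643, 3465 and 2652 and was lowest in sheep 6 and 10, where miR-26a was highest.

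The miR-30 family, which is known in lung epithelium and as a brake on epithelial to mesenchymal transition, held 11.9%, 12.8%, 6.96%, 13.1% and 7.97% with its 5 probes. Its share in sheep 6 and 10 lay below that of every other sheep, and its mean was 10.6% ± 2.88 over the 5 animals and 12.6% without those 2. The miR-23 pair held 7.52% ± 1.10, miR-143 7.23% ± 3.35 and miR-21 6.20% ± 3.31. Without sheep 6 and 10, miR-143 held 5.45% and miR-21 3.88%. Below 5% came miR-16 with 4.88% ± 0.293, the miR-29 pair with 4.30% ± 1.04 and miR-191 with 2.64% ± 0.10. miR-143 and miR-21 had their highest shares in sheep 6 and 10, and as parts of 1 total the shares of different families are not independent of each other.

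**Figure D3:**
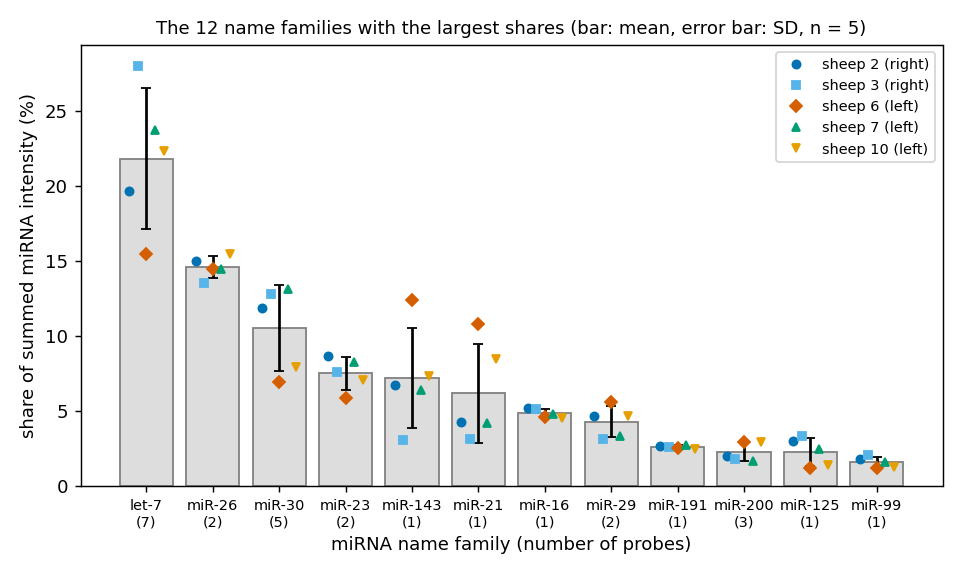
Share of the summed miRNA intensity (percent) held by the 12 leading miRNA families, grouped by name, with each of the 5 sheep as a point and the mean ± SD as a bar. The let-7 points run from 15.5% to 28.0%, whereas those of miR-26 stay between 13.5% and 15.5%.

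The let-7 members did not rise and fall as 1 block. let-7a, let-7b, let-7c and let-7d were highest in sheep 3 and lowest in sheep 6. let-7a, for example, had intensities of 5612, 8599, 3877, 7119 and 6065, and let-7b had 3563, 7150, 2302, 4752 and 3404. let-7i and let-7g went the other way, with 3005, 3336, 4217, 3814 and 4100 for let-7i, which was highest in sheep 6 and lowest in sheep 2. Near-identical members can bind each other's probes, and the part of this in the values was not tested.

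miRNAs known to be enriched in a cell type were read as levels of the whole tissue. The epithelial miR-200a, miR-200b and miR-200c, which keep epithelial cells from a mesenchymal state, held 1.69% to 2.95% of the signal, a mean of 2.29%, and 3 of the 5 miRNAs of that list had a probe. miR-200b and miR-200c were even, at 1184, 1187, 1373, 1052 and 1634 for miR-200b, while miR-200a ran from 689 in sheep 3 to 2088 in sheep 6. The smooth muscle and mesenchyme list, with miR-143 and miR-199a-3p on the array out of 4, held 3.94% to 13.7%, with a mean of 8.31%, of which miR-143 made up 7.23%. The lymphocyte miRNAs miR-150, a regulator of Myb in mature lymphocytes, and miR-181a held 1.67% to 2.84% together, with 2 of 3 having a probe.

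Of the listed markers of tissue from outside the lung, only miR-133 and miR-194 had a probe, and both held small shares of the signal. miR-133, a miRNA of striated muscle and the only one of 5 such miRNAs with a probe, had intensities of 99.1, 37.0, 35.2, 162 and 63.2, a mean share of 0.0559%. It was the dimmest of the 50 probes that lie outside the chromosome 18 cluster described below. miR-194, known from gut and liver epithelium, held 0.0810% and was the only one of 3 in its list with a probe. The lists for endothelium (miR-126), myeloid cells, red cells, liver and neurons had no probe, so endothelial, myeloid and blood content could not be read from these arrays. A panel of miR-21, miR-26a, miR-29a, miR-30a-5p and miR-103, chosen because it was also measured by qPCR in these animals, was bright throughout. Together these 5 held 19.2% to 31.9% of the signal.

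A large part of the array was devoted to 1 genomic region. By the hairpin names in RefSeq, 102 of the 152 probes, for 55 hairpins, belong to a cluster on chromosome 18 of the assembly ARS-UI_Ramb_v3.0. This is the imprinted DLK1-DIO3 or callipyge region, whose maternally expressed miRNAs are known from embryo, placenta, muscle and brain. In the normal-labelled segments only 8 of the 102 were bright, the median of their mean log2 intensities was 1.82 and all 102 together held 1.44% ± 0.466 of the signal. Its share was 1.24%, 1.14%, 2.25%, 1.16% and 1.42% in sheep 2, 3, 6, 7 and 10, and its mean without sheep 6 and 10 was 1.18%. The 50 probes at other loci were all bright, with a median of 10.58 and a range from 6.06 to 14.11, and held 98.6%. The methods state that the array included miRNAs already linked to pulmonary fibrosis, so its probes are not an unselected set of ovine miRNAs.

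The highest mean in the cluster was that of miR-494-3p (7.92 on the log2 scale), with intensities of 255, 75, 1129, 52.4 and 723. miR-127, which acts on the retrotransposon-derived gene Rtl1 from the opposite strand, had 178, 131, 796, 148 and 265. Both were highest in sheep 6 and next in sheep 10, and low in sheep 3 and 7. miR-376c-3p was the steadiest of the 3, with 276, 206, 205, 214 and 148, and was the brightest of them in sheep 2, 3 and 7. The place of miR-494-3p rested on sheep 6 and 10: without sheep 6 alone its mean was 7.36 against 7.69 for miR-376c-3p, and without both it was 6.65 against 7.85. The other bright members were miR-376e-3p, miR-379-5p, miR-487b-3p, miR-411a-5p and miR-495-3p, with mean log2 intensities between 5.04 and 6.41. At the other end, 45 members were below 1 on at least 1 array, and miR-323b and miR-654-3p were below 1 on all 5, so no level can be given for them.

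Both arms had a probe for 48 hairpins, of which only miR-30a lies outside the cluster. The 5p arm was brighter on average in 25 hairpins and the 3p arm in 23, and 25 hairpins went the same way in all 5 sheep, 15 towards 3p and 10 towards 5p. Both arms were dim in 41 of them. Each arm has its own probe, so the ratio of their signals is not a ratio of molecules and was not tested.

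miR-30a was the only hairpin with both arms bright. Its 5p probe had intensities of 5277, 3737, 4909, 4334 and 4352 and its 3p probe 254, 483, 140, 573 and 297. The 5p arm was brighter in every sheep, by 3.85 ± 0.95 on the log2 scale (SD, n = 5) or 14.4-fold, and the variation of the ratio between animals, from 2.92 to 5.14, came mostly from the 3p probe, whose SD was 0.81 against 0.19 for the 5p probe. Without sheep 6 and 10 the difference was 3.42.

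In the cluster, miR-494, miR-376c and miR-495 had 3p brighter than 5p in all 5 sheep, by 7.63 ± 2.03, 5.68 ± 1.67 and 4.59 ± 1.0 on the log2 scale. The 5p probe of miR-494 was below 1 on 4 arrays and that of miR-495 on 3, so these differences depend on the floor, and the 5p probe of miR-376c was below 1 on 1 array. miR-379 and miR-411a had 5p brighter in all 5 sheep, by 2.96 ± 0.73 and 0.92 ± 0.36. miR-487b was the exception among the 7 hairpins with a bright arm, since its 3p probe was steady at 40.6, 44.5, 86.9, 49.3 and 55.8 while its 5p probe was at 2.95, 48.3, 0.863, 35.2 and 3.26. In sheep 3 and 7 the arms of miR-487b were nearly level, and in the other sheep 3p was brighter by at least 3.78. With a floor of 32 the differences shrank to -2.92 for miR-494, -2.69 for miR-376c, -0.39 for miR-495, 1.23 for miR-379 and 0.38 for miR-411a.

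**Figure D4:**
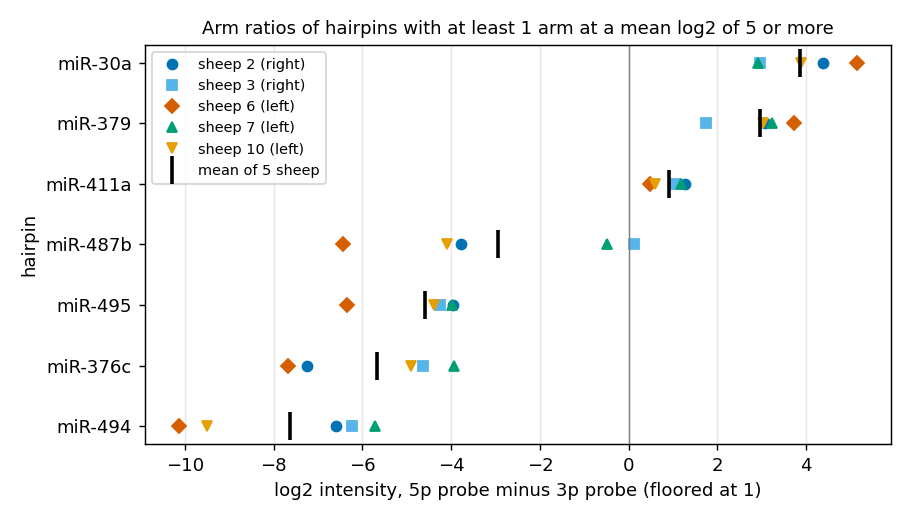
Log2 of the 5p over the 3p intensity for the 7 hairpins with probes for both arms and at least 1 of them bright, with each of the 5 sheep as a point and the mean as a vertical tick, so that values above 0 mean a brighter 5p arm. miR-30a, miR-379 and miR-411a lie above 0 and miR-494, miR-376c and miR-495 below 0 in every sheep, while the points of miR-487b run from -6.44 to 0.12.

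The split of sheep 3 and 7 from the others was also seen in other dim arms. Of 7 dim miRNAs with a range over 4 on the log2 scale, a set chosen after their values were seen, 5 had sheep 3 and 7 above the other 3 animals, and the other 2, miR-3959-3p and miR-376a-5p, had them below. Over all miRNAs the values of sheep 3 and 7 did not overlap those of the others in 75 of 152, which is 49.3%, with 39 above and 36 below. miR-381-5p, for example, had intensities of 7.94, 103, 0.650, 91.8 and 5.28, and miR-3957-3p 8.46, 104, 9.06, 216 and 9.17. The others with sheep 3 and 7 above were miR-323a-5p, miR-487a-5p and miR-487b-5p. All 7 are in the chromosome 18 cluster, as are all 94 dim miRNAs of the array, and the sheep that share the pattern had their normal label on opposite sides. These arrays had the lowest and the third lowest summed 5S control signal and the lowest spike control signals, whose part in the result was not tested. A control probe picked after its values were seen, Ctr04-3M05, had a like split, and how many control probes share the split was not counted. The intensities of Ctr04-3M05 were 4.30, 41.4, 9.48, 45.8 and 4.09 in sheep 2, 3, 6, 7 and 10. Another dim control probe, Ctr05-3M05, did not show the split, at 9.29, 8.55, 7.94, 12.6 and 12.8.

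Pairs of miRNAs that lie next to each other, and are often made from 1 primary transcript, were compared within each sheep at 8 loci outside the cluster, where neighbours are genes less than 100 kb apart. The ratio of let-7a to let-7d on chromosome 2 was the most constant, at 0.49, 0.53, 0.48, 0.50 and 0.33 on the log2 scale, with an SD of 0.08, while each miRNA alone varied with an SD of 0.43 and 0.42. The difference of miR-374b and miR-374a on chromosome X was 0.60 ± 0.33, with SDs of 1.52 and 1.24 alone. It was not constant, at 0.89, 0.80, 0.28, 0.84 and 0.20 in sheep 2, 3, 6, 7 and 10, and was lower in sheep 6 and 10. The let-7c and miR-99a difference was 0.56 ± 0.27, with an SD close to that of miR-99a alone, 0.30. Pairs from different loci were not compared in this way, so a constant ratio is not shown to be particular to neighbours. let-7c, on chromosome 1, also moved with let-7a. Their log2 intensities in sheep 2, 3, 6, 7 and 10 were 11.695, 12.27, 10.98, 11.90 and 11.66 for let-7c and 12.45, 13.07, 11.92, 12.80 and 12.57 for let-7a. Binding of similar members to each other's probes was not tested.

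Other neighbours moved apart. miR-30b was brighter than miR-30d in every sheep, but by 0.72 in sheep 7 and 2.95 in sheep 6, a mean of 1.63 ± 0.88. miR-23a exceeded miR-27a by 0.56 in sheep 6 and 2.27 in sheep 7. For miR-200b and miR-200a (0.21 ± 0.56), miR-25 and miR-106b (0.38 ± 0.77) and miR-19b and miR-17-5p (0.09 ± 0.62), the order turned between animals. In all 3, the arrays of sheep 6 and 10 lay on 1 side of the other 3: miR-200b over miR-200a, for instance, was 0.45, 0.79, -0.60, 0.51 and -0.09. The same held for miR-30b and miR-30d, for miR-23a and miR-27a and for miR-374b and miR-374a. It also held, narrowly, for let-7a and let-7d, but not for let-7c and miR-99a.

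The spread between animals was small for many bright miRNAs. The median SD of log2 intensity was 0.63 over all 152 miRNAs, 0.43 over the 58 bright ones and 0.36 over the 30 with a mean of at least 10, and 23 bright miRNAs had an SD under 0.3. The most even miRNA was miR-191, at 3789, 3721, 3763, 3899 and 3600, with an SD of 0.04 and a 1.08-fold difference between the highest and lowest sheep. miR-16b (0.06), miR-23b (0.14), miR-103 (0.14) and miR-107 (0.15) followed. miR-103, which regulates insulin sensitivity with its near twin miR-107 and served as the qPCR reference of the study, had intensities of 688, 873, 787, 819 and 880.

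At the other end, 5 bright miRNAs had an SD over 1. miR-494-3p varied most, with an SD of 1.95 and 21.6-fold between sheep 6 and sheep 7. miR-374b had intensities of 277, 572, 47.9, 454 and 95.7 (SD 1.52), miR-30d 2289, 2757, 419, 3823 and 899 (SD 1.31) and miR-374a 150, 328, 39.4, 254 and 83.5 (SD 1.24). All 3 were lowest in sheep 6 and next lowest in sheep 10. miR-127, with an SD of 1.05, was highest in the same animals.

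Then came miR-495-3p (0.95), miR-133 (0.94), miR-379-5p (0.94), miR-150 (0.90) and miR-30a-3p (0.81). miR-150 had intensities of 1455, 2107, 445, 1171 and 664, again lowest in sheep 6 and 10. miR-133 followed another order and was highest in sheep 7 and 2. Without sheep 6 and 10, the SD was 0.53 for miR-374b, 0.37 for miR-30d, 0.58 for miR-374a, 0.22 for miR-127 and 0.43 for miR-150, and it stayed at 1.20 for miR-494-3p. The evenness and the spread both depend on the scale between arrays: when the control probes served as the centre of each array, the SD of miR-191, miR-16b and miR-103 became 0.74, 0.77 and 0.73. Under that scale the SD fell to 0.40 for miR-127, 0.38 for miR-379-5p and 0.48 for miR-495-3p, and it was 2.03 for miR-30d, 1.95 for miR-374a and 1.6 for miR-150, with 20 bright miRNAs over 1 in place of 5.

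**Figure D5:**
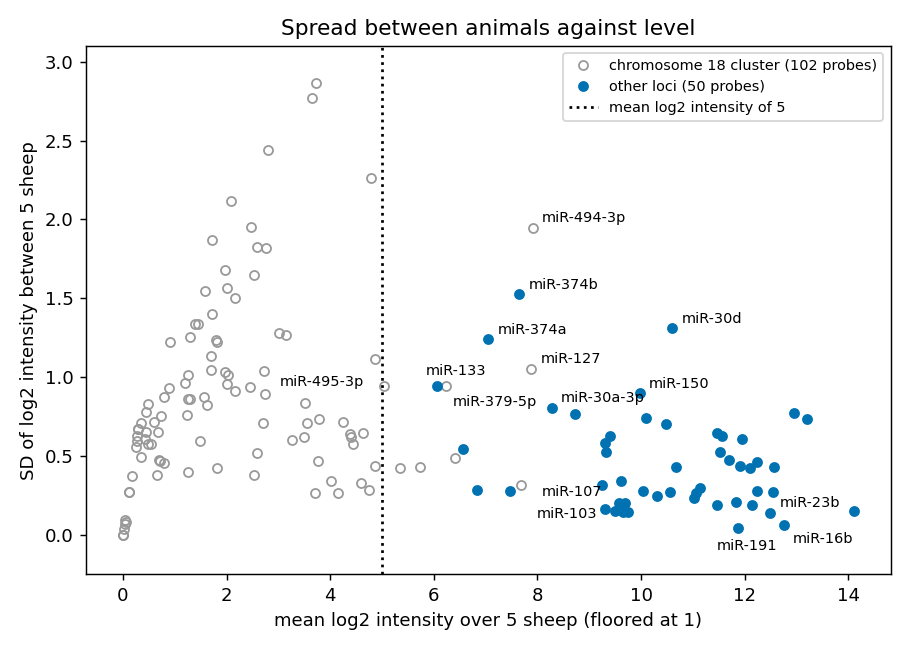
SD of log2 intensity between the 5 sheep (vertical axis) against mean log2 intensity (horizontal axis, floored at 1) for all 152 miRNAs, with the chromosome 18 cluster as open circles, other loci as filled circles and a dotted line at a mean of 5. The bright miRNAs to the right mostly lie below 0.5, with miR-494-3p, miR-374b, miR-30d, miR-374a and miR-127 above 1.

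The arrays most alike were those of sheep 3 and 7. Over the 152 miRNAs, Pearson's r of log2 intensities was 0.989 between sheep 3 and 7 and 0.985 between sheep 6 and 10 and 0.980 between sheep 2 and 10, and lowest between sheep 6 and 7 (0.921) and between sheep 3 and 6 (0.922). Among the 58 bright miRNAs, the median absolute difference was 0.23 between sheep 3 and 7, 0.29 between sheep 2 and 7, 0.34 between sheep 2 and 10 and 0.38 between sheep 6 and 10, so that the array of sheep 10 was about as close to that of sheep 2 as to that of sheep 6. These correlations are across miRNAs on arrays with the same probes and are a description. Of the 58 bright miRNAs, 3 differed by more than 1 on the log2 scale between sheep 3 and 7, and 27 did between sheep 3 and 6. The normal label of sheep 3 and 7 lay on opposite sides, and that of sheep 6 and 10 on the left in both.

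Sheep 6 and 10, the animals with the highest control signals, both lay outside the range of the other 3 sheep for 69 of 152 miRNAs, which is 45.4%, with 34 above and 35 below. Among the bright miRNAs this was so for 39 of 58, with 21 above and 18 below. Those above included, with miR-26a, miR-143 and miR-21, both miR-29 members, miR-27a, miR-22-3p, miR-221, miR-19b, miR-106b, miR-152, miR-494-3p, miR-127, the miR-200 members, let-7g and let-7i. Those below included let-7b and let-7c, miR-16b, miR-125b, miR-99a, miR-26b, miR-30b, miR-30c, miR-30d, miR-150, miR-10a and both miR-374 members. The control signal moved with this split, and its part in the result was not tested.

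Right against left normal-labelled segments addressed whether the arrays on which label and text agree on the side (sheep 2 and 3) stand apart from those on which they disagree (sheep 6, 7 and 10). By limma over the 152 miRNAs, 0 (0%) passed an adjusted p under 0.05, where the lowest adjusted p was 0.771, and 5 (3.29%) had an unadjusted p under 0.05. The values of sheep 2 and 3 did not overlap those of sheep 6, 7 and 10 in 29 miRNAs, which is 19.1%, with 16 above and 13 below, and in 14 of the 58 bright ones. The only miRNA with an unadjusted p under 0.01 was the dim miR-485-5p of the chromosome 18 cluster, with intensities of 6.78, 11.3, 1.36, 2.94 and 1.24. It was higher in both right segments by 2.35 on the log2 scale (limma p = 0.00955, adjusted p = 0.771), and the exact two-sided permutation test gave p = 0.1, the smallest that 10 assignments allow. Side, animal and the disagreement cannot be told apart here. Leaving out sheep 3 made sheep 2 the single right segment. The miRNAs then called were dim, with mean log2 intensities of at most 0.45, and were at the floor on all left segments. miR-541-3p, for example, was higher in sheep 2 by 1.79 on the log2 scale, against a left mean of 0. These calls are therefore not read as differences.

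The right segment of all 5 sheep was also taken as control, as the text states. The right segments of sheep 6, 7 and 10 carry the fibrosis label, and those of sheep 2 and 3 are the same arrays as above. Part of any likeness is therefore built in. A change under this choice is also a change from normal-labelled to fibrosis-labelled tissue in sheep 6, 7 and 10, and is not read as an effect of fibrosis or of side. miR-26a had a mean log2 intensity of 13.93 in place of 14.11, and the 10 brightest miRNAs held 54.6% in place of 55.1%. let-7 held 22.4% in place of 21.9%, miR-30 9.65% in place of 10.6% and miR-21 7.68% in place of 6.20%. The chromosome 18 cluster held 1.37% in place of 1.44%, and the 5p arm of miR-30a was brighter by 4.27 in place of 3.85. miR-191 was less even under this choice, with an SD of 0.23 in place of 0.04.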

How the data were processed

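Small RNA of caudal lung segments of 5 sheep was profiled on a custom 1-dye ovine array (152 miRNA and 55 control probes, 21 spots per probe per the methods). The deposited values are intensities on a linear scale, 1 for each probe of an array, after background correction by the authors, and the log2 step that the methods mention is not in them. Here, intensities below 1 were raised to 1 and log2 was taken. The label protocol names a mouse layout with miRBase release 22, while all miRNA probes carry ovine names. Normalization between arrays was not given in the sources used here, and no further scaling was applied. The summed miRNA intensities were nearly equal, at 139350 to 146225, while the summed spike controls ran from 26854 to 239347. Whether the deposited values had already been scaled to a common miRNA signal was not tested, and the evenness of bright miRNAs is read with that limit. The number of arrays limits the precision.

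Groups were taken from the histology labels. Levels, shares of the summed intensity, arm ratios (48 hairpins) and SDs over sheep are descriptions. Families were grouped by miRNA name in place of the seed, because no table of sequences was used here, and chromosomes and distances between hairpin genes were taken from ARS-UI_Ramb_v3.0 without printing coordinates. All 152 probes matched a RefSeq hairpin gene by name. Right and left segments were compared by limma 3.58.1 (lmFit and eBayes, R 4.3.3) with Benjamini-Hochberg adjustment over the 152 miRNAs. The p-value sets the right to left difference against the spread between these animals. On simulated arrays for this comparison (152 miRNAs, 50 runs, 20 changed), 0.1% of changed miRNAs passed at a log2 change of 1 and 38.2% at 2, and with no change 5.74% had an unadjusted p under 0.05. The simulated noise was normal, independent between miRNAs and without a floor. The real arrays have floored values and splits shared by many miRNAs, so these rates need not hold for them. Other steps used Python 3.11.15 with pandas 2.3.3 and numpy 2.4.6.

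The members, lists and tests were chosen with earlier results of these data known. The miRNAs named are the 20 with the highest mean, the hairpins with 2 arms, the 10 largest and 5 smallest SDs among bright miRNAs, members of the 11 lists and families, and the largest right to left differences (adjusted p under 0.05, or unadjusted p under 0.01 where fewer than 5 passed). The alternatives were floors, scalings, filters, other codings of the control segment and leaving out each sheep.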

Additional observations from a re-analysis of the deposited data

Results flagged for a closer look

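Of 51 values examined over the 5 sheep, 2 had an animal whose gap to the nearest other, as a part of the whole range, exceeded Dixon's critical value of 0.71, and chance flags about 1 in 20 such groups. The chromosome 18 cluster held 2.25% of the miRNA signal in sheep 6 against 1.14% to 1.42% in the other sheep (gap over range 0.748). The 5p minus 3p difference of miR-495 was -6.35 on the log2 scale in sheep 6 against -4.40 to -3.97 in the others (0.820). Both stand on the array with the highest control signals, whose part was not tested.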

How the results depend on the processing

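The counts, shares, arm ratios and counts of right to left calls mostly kept their direction and side of the threshold. The 58 bright miRNAs became 152 with a floor of 32, by construction. The median SD of 0.63 became 0 with that floor and 0.96 with control probes as the centre of each array. For right against left (limma), the 0 adjusted calls did not hold without sheep 3, where the miRNAs called were at the floor on all left segments and sheep 2 was the single right segment. The 5 miRNAs with an unadjusted p under 0.05 became 3 with the 75th percentile as the centre and 2 among bright miRNAs, and ranged from 1 without sheep 6 to 28 without sheep 7. The median right minus left difference over all miRNAs was 0.11 and depended on the scale in size and sign, with 0.91 with control probes as the centre, 0.22 with the 75th percentile, 0.0029 with quantile normalization, 0 with a floor of 32 or without sheep 2, -0.077 with the miRNA median as the centre and -0.0048 among bright miRNAs. Joining or splitting families where the shared seed is general knowledge, an alternative added after seeing the data as was leaving out sheep 6 and 10, put miR-17 with miR-106 at 1.43%, miR-103 with miR-107 at 1.17% and the miR-30 family without its 3p member at 10.3%. Leaving out each sheep in turn gave 53.7% to 55.8% for the 10 brightest miRNAs, 20.3% to 23.5% for let-7 and 3.53 to 4.08 for the arm difference of miR-30a. No paired analysis was possible because each sheep gave 1 normal-labelled array. Low signal limits the 94 miRNAs that were not bright. The limit of 32 was not set from a background estimate, so low signal may also affect the dimmest bright miRNAs, such as miR-495-3p at 15.9 to 81.7.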
